A study of Rattus norvegicus with 23 samples.

Results

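Splicing factors of the SR and hnRNP families, with Rbm, Clk, Srrm and Leng8 genes, were described in newborn rat hearts after maternal diabetes, a maternal high-fat (HF) diet, or both. The members were the probe sets whose single gene symbol in the array annotation begins with Srsf, Hnrnp or Rbm, or is one of Clk1 to Clk4, Srrm1, Srrm2, Son or Leng8. This rule gave 83 probe sets of 67 genes out of 29170 probe sets on the array table. They were 11 probe sets of SR proteins, 29 of 17 hnRNP genes, 35 of 32 genes of RNA-binding motif (Rbm) proteins, 4 of the CDC-like kinases and 4 of Srrm1, Srrm2 and Leng8. Son had 0 probe sets with a single symbol and was not analysed here. Members were taken by name, and a role in splicing was not checked for each.

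Whole hearts of 23 rats were taken on postnatal day 1, and the RNA of each was read on an Affymetrix Rat Gene 1.0 ST array. The 5 combination hearts came from dams on HF diet that were also diabetic, the 5 HF diet hearts from dams on HF diet without diabetes, the 6 diabetes hearts from diabetic dams on control diet, and the 7 control hearts from dams with neither exposure. The diets had begun at least 28 days before mating. Dams of the diabetic groups received 65 mg/kg of the beta cell toxin streptozotocin on gestational day 14 and enough insulin to aim for a glucose of 200 to 400 mg/dl, while the other dams received citrate buffer. This model rests on loss of beta cells rather than on insulin resistance. Each group held whole hearts of males and females, and whole-heart RNA cannot tell fewer cells of a type from less RNA per cell. The code stems of the labels number 3 for the 5 combination hearts and 3 for the 5 HF diet hearts, and whether hearts of 1 stem share a dam is not stated in the sources used here.

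Splicing removes introns from the nascent transcript and joins the exons. SR proteins carry domains rich in arginine and serine and mostly promote the use of exons near their binding sites, while hnRNPs coat the transcript and often favour exon skipping. CDC-like kinases phosphorylate the arginine and serine repeats of SR proteins, and several SR and hnRNP genes limit their own mRNA through exons that lead to nonsense-mediated decay. In the heart, Rbm20 represses exons of titin and of calcium-handling genes, and Rbm24 promotes muscle-specific exons. The arrays summed signal along each transcript, so abundance was read and exon usage was not.

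The values are log2 and centred on each probe set's median over all hearts, so a value of 0 is the middle of the 23 hearts. They hold differences between hearts but no levels, and neither the abundance of a gene nor the presence of cardiac markers can be judged from them. Differences were taken from 1 limma fit of all hearts, and a probe set was past the threshold when it differed by more than 0.32 on the log2 scale, the fold of the methods, with an unadjusted p under 0.05. After Benjamini-Hochberg adjustment over all 29170 probe sets, 0 members and 0 other probe sets (0%) had an adjusted p under 0.05 in any of the 6 comparisons with limma, nor in the 5 of them between 2 groups with the methods' t-test. The lowest adjusted p of a member was 0.368. All differences below therefore rest on the unadjusted threshold.

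Some genes past the threshold between combination and HF diet hearts, namely Hnrnpa2b1, Hnrnpa3, Srsf3 and Srsf5, share a short sequence upstream of their start sites, and these stretches are shown together with that of Leng8, which had the largest difference. Each stretch holds the 250 bases before the RefSeq start site on build GRCr8, 5′ to 3′, with matches to the searched elements in capitals.
Hnrnpa2b1, chr4:81875887-81876136, minus strand: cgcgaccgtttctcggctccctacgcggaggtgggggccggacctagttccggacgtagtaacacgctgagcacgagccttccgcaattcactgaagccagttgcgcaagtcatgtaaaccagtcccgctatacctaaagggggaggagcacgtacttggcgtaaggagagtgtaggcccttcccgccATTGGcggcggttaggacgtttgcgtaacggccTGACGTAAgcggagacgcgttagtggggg
Hnrnpa3, chr3:80985684-80985933, plus strand: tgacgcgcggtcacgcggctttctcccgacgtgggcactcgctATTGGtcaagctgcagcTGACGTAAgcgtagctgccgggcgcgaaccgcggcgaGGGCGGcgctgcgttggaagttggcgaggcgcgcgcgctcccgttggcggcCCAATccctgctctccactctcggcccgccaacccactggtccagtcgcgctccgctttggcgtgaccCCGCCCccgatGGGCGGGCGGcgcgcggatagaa
Srsf3, chr20:7093335-7093584, plus strand: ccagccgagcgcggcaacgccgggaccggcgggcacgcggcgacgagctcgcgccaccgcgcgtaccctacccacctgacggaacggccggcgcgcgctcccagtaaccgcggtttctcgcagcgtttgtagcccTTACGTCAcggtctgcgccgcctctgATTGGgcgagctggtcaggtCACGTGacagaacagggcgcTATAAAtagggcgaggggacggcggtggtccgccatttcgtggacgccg
Srsf5, chr6:106336506-106336755, plus strand: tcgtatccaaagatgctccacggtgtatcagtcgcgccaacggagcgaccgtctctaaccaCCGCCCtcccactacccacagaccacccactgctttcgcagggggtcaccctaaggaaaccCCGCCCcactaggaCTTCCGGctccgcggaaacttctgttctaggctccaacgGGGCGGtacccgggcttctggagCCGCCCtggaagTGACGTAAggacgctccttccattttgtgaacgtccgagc
Leng8, chr1:79124739-79124988, minus strand: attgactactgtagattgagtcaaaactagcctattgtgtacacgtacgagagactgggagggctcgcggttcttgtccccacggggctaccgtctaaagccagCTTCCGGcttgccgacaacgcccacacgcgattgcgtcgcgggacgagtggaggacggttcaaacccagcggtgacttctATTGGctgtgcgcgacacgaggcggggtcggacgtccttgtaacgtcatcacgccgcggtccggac
The shared element was TGACGTAA, a variant of the cyclic AMP response element, which stands as TTACGTCA in Srsf3, on the other strand. It was found in 4 of 67 member windows (5.97%), those of the 4 genes just named, and in 0.75% of all 33469 windows of the same length. The letters were chosen after these windows had been read, so the share is a description.

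RefSeq windows were found for 60 of the 67 genes, some with several. Their median GC content was 61.2% (range 34.4% to 77.2%) with a median of 20 CpG, against 51.2% and 5 CpG over all windows. Elements were searched on both strands. CCAAT was found in 53.7% of member windows and in 34% of all windows, the GC box GGGCGG in 53.7% and 30.5%, the ETS core CCGGAAG in 19.4% and 7.27%, GCATGCGC of NRF1 in 5.97% and 2.2%, the full element TGACGTCA in 2.99% and 1.59%, CACGTG, the E-box, in 8.96% and 5.59%, TATAAA in 13.4% and 12.9%, and AAGATGGC of YY1 in 1.49% and 1.63%. The E-box stood in the windows of Hnrnpd, Hnrnpm and Srsf3 and in a single one of the 2 windows of Hnrnpdl, all past the threshold. It also stood in those of Hnrnph2 and Rbm46, which were not. Hnrnpa2b1, Hnrnpa3, Leng8 and Srsf5, also past the threshold, had none, and Rbm20 and Srrm2 had no window. The calls come from these same hearts, and a difference between called and other genes was not tested. GC-rich windows hold GC-rich letters more often, and the 2 sets of windows were not matched for it.

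Combination hearts were set against HF diet hearts, that is, diabetes with HF diet against HF diet alone. Here 18 of 83 probe sets (21.7%) of 10 genes were lower past the threshold, where 2.92% of all probe sets were lower. None was higher, where 2.84% of all probe sets were higher. With the methods' t-test only 4 members (4.82%) of 3 genes, Hnrnpd, Hnrnpdl and Leng8, were lower past the threshold, where 1.59% of all probe sets were. The median difference over the members was -0.15 on the log2 scale, against -0.01 over all probe sets, and 63 of 83 members were below 0. At an unadjusted p under 0.05 alone, 28 members were lower, and 6.94% of all probe sets were. Of the 18 probe sets 8 belong to Hnrnpa3. Without it, 10 of 75 probe sets (13.3%) of 9 genes were lower.

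**Figure D1:**
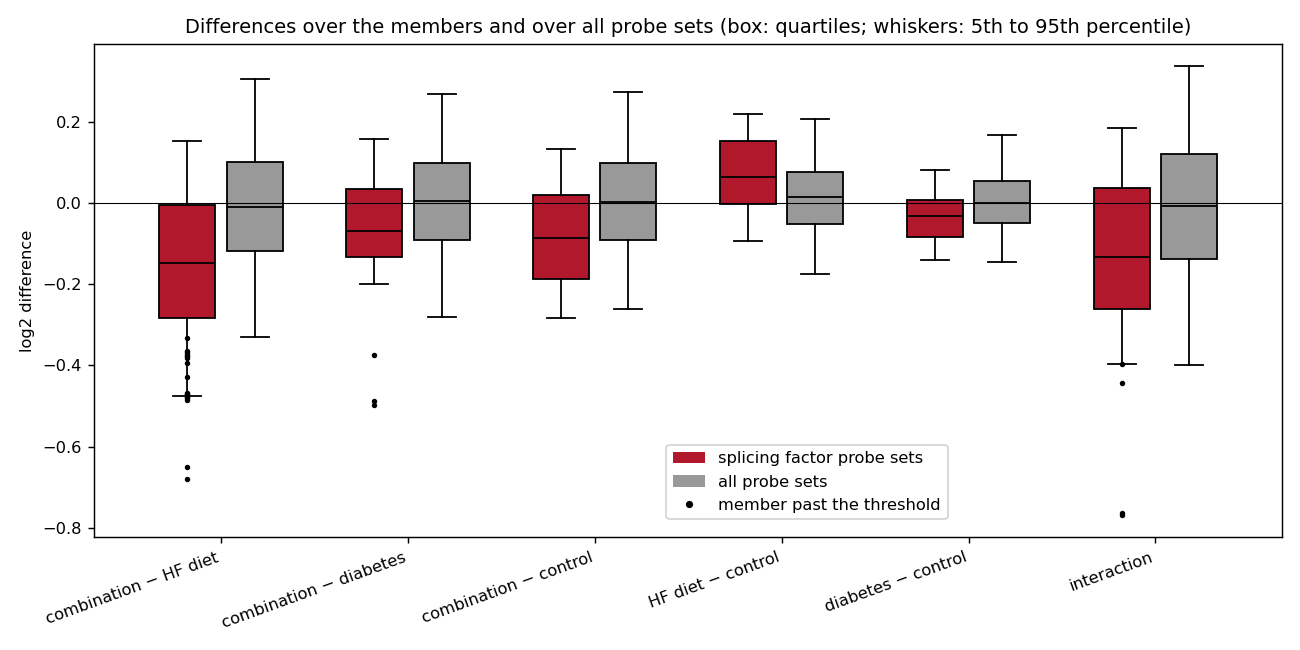
Log2 differences of the 83 splicing factor probe sets (red) and of all 29170 probe sets (grey) in the 6 comparisons, with boxes at the quartiles, whiskers from the 5th to the 95th percentile and black points for members past the threshold. The median of the members lies at -0.15 for combination minus HF diet and at 0.06 for HF diet minus control.

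The share of probe sets that were lower differed between the families. Of the hnRNP probe sets, 12 of 29 were past the threshold and 27 lay below 0, with a median of -0.28. Of both the 12 and the 29, 8 belong to Hnrnpa3, so 1 gene is counted 8 times. By gene, 5 of 17 hnRNP genes were past the threshold. Of the SR proteins, 2 of 11 were past it and 9 lay below 0, with a median of -0.16. Of the Rbm proteins, only Rbm20 was past it among 35 probe sets, with a median of -0.05. The authors list Rbm33 as lower in the same comparison, but it is not among these 35. The CDC-like kinases had 0 of 4 past the threshold, with differences between -0.04 and 0.11, and 0 with an unadjusted p under 0.05. Differences between the families were not tested.

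**Figure D2:**
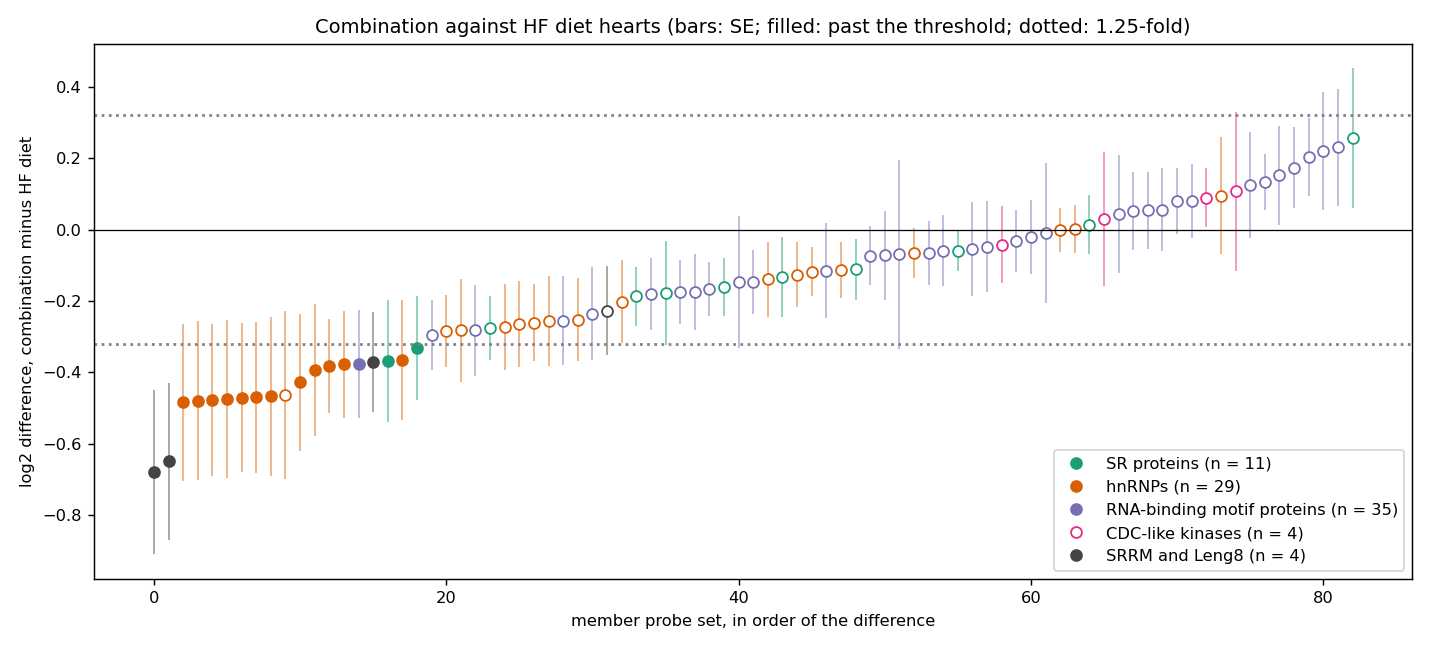
Log2 difference of each of the 83 member probe sets between combination and HF diet hearts, in rank order, with bars for the SE from limma, colours for the family and filled points past the threshold. The 2 Leng8 probe sets lie lowest, at -0.68 and -0.65, and the filled points are all below 0.

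Leng8, a nuclear protein related to the yeast mRNA export factor Sac3, had the largest difference. Probe set 10719006 of Leng8 read -0.79, -0.62, -0.34, -0.10 and -0.16 in the combination hearts, against 0.39, -0.09, 0.50, 0.24 and 0.36 in the HF diet hearts. All combination hearts lay below all HF diet hearts, by the least at combination heart 4 and HF diet heart 2. The difference was -0.68 ± 0.23 (SE), with p = 0.00746 (adjusted p = 0.368) and a two-sided exact permutation p of 0.00794, the smallest that 252 splits of 5 against 5 hearts allow.

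The other Leng8 probe set, 10719002, read -1.06, -0.58, -0.26, 0.00 and -0.18 in combination hearts, against 0.23, -0.01, 0.48, 0.35 and 0.12 in HF diet hearts. Its groups overlapped by 1 heart. The difference was -0.65 ± 0.22 (SE), with p = 0.00728 (adjusted p = 0.368) and an exact permutation p of 0.0159.

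Among all 29170 probe sets 0.96% had every combination heart below every HF diet heart. Of the members 3 did, Leng8, Hnrnpd and Hnrnpdl. Hnrnpd encodes AUF1, which binds AU-rich elements of unstable mRNAs, and Hnrnpdl is its close relative and, in RefSeq, its neighbour on chromosome 14 with 0 protein-coding genes between them.

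Hnrnpd read -0.52, -0.27, -0.21, 0.00 and -0.04 in combination hearts, against 0.18, 0.02, 0.51, 0.09 and 0.07 in HF diet hearts. The first 3 combination hearts were low, and the other 2 lay just under the lowest HF diet heart. The difference was -0.38 ± 0.13 (SE), with p = 0.00821 (adjusted p = 0.368) and an exact permutation p of 0.00794.

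Hnrnpdl read -0.12, -0.37, -0.44, -0.03 and -0.06 in combination hearts, against 0.00, 0.02, 0.57, 0.09 and 0.13 in HF diet hearts. Its difference was -0.37 ± 0.17 (SE), with p = 0.0408 (adjusted p = 0.37) and an exact permutation p of 0.00794. As in Hnrnpd, combination hearts 4 and 5 were close to the HF diet hearts, and HF diet heart 3 stood above the others.

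The hnRNP A/B proteins are among the most abundant nuclear RNA-binding proteins and compete with SR proteins at many exons. Hnrnpa3, averaged over its 8 probe sets, read -0.45, -0.21, -0.19, 0.03 and -0.01 in combination hearts, against 0.11, 0.00, 1.41, 0.08 and -0.09 in HF diet hearts. Only HF diet heart 3 was far above 0, and the other 4 HF diet hearts overlapped combination hearts 4 and 5. The 8 probe sets moved together, with differences between -0.48 and -0.43, p between 0.034 and 0.0467, and adjusted p between 0.369 and 0.373. Several of them may read near-identical copies of the gene, so they are not 8 separate results. Without HF diet heart 3 their differences were between -0.21 and -0.18, and none was past the threshold.

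Hnrnpa2b1, whose protein also sorts RNA in the cytoplasm, had 2 probe sets that differed in their call. Probe set 10862522 read -0.13, -0.40, -0.28, -0.10 and -0.06 in combination hearts, against 0.06, -0.17, 0.91, 0.00 and 0.12 in HF diet hearts. The difference was -0.38 ± 0.15 (SE), with p = 0.0193 (adjusted p = 0.368) and an exact permutation p of 0.0397. The other probe set had a difference of -0.27, short of the fold. Without HF diet heart 3 the difference of the first was -0.20.

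Hnrnpm, a regulator of alternative exons, read -0.41, -0.15, -0.25, 0.08 and 0.11 in combination hearts, against 0.14, 0.07, 1.10, 0.09 and -0.05 in HF diet hearts. The difference was -0.39 ± 0.18 (SE), with p = 0.0442 (adjusted p = 0.371), and the exact permutation p was 0.0794. The groups overlapped, and the difference was -0.19 without HF diet heart 3.

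Among the SR proteins, Srsf3 and Srsf5 were past the threshold. Srsf3, the smallest of the family, read 0.22, -0.55, -0.62, 0.04 and 0.00 in combination hearts, against 0.02, 0.06, 0.40, -0.02 and 0.31 in HF diet hearts. Hearts 2 and 3 carried the low mean, while combination heart 1 lay above 3 of the HF diet hearts. The difference was -0.33 ± 0.15 (SE), with p = 0.0322 (adjusted p = 0.369) and an exact permutation p of 0.127.

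Srsf5 read -0.04, -0.16, -0.13, 0.07 and -0.05 in combination hearts, against -0.03, 0.07, 1.20, 0.12 and 0.18 in HF diet hearts. Its difference was -0.37 ± 0.17 (SE), with p = 0.0435 (adjusted p = 0.37) and an exact permutation p of 0.0159. HF diet heart 3 stood apart here too, and the difference was -0.15 without it. Srsf4, an SR protein of the same subgroup, had the smallest p of all members, 0.00496, but its difference of -0.28 ± 0.09 (SE) fell short of the fold.

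Srrm2, a large scaffold protein of nuclear speckles, where splicing factors are stored, read -1.01, -0.26, -0.13, 0.04 and -0.13 in combination hearts, against 0.14, 0.00, 0.02, 0.13 and 0.07 in HF diet hearts. The HF diet hearts lay close together, and combination heart 1 was far below all others. The difference was -0.37 ± 0.14 (SE), with p = 0.0143 (adjusted p = 0.368) and an exact permutation p of 0.0238. Without combination heart 1 it was -0.19.

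Rbm20, the cardiac repressor of titin exons, read -0.73, -0.37, -0.13, 0.02 and -0.11 in combination hearts, against 0.24, 0.00, 0.48, -0.08 and -0.07 in HF diet hearts. The first 3 combination hearts were lowest and the rest of both groups overlapped. The difference was -0.38 ± 0.15 (SE), with p = 0.0209 (adjusted p = 0.368) and an exact permutation p of 0.0476. It was -0.28 without HF diet heart 3 and -0.26 without combination heart 1, both short of the fold.

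**Figure D3:**
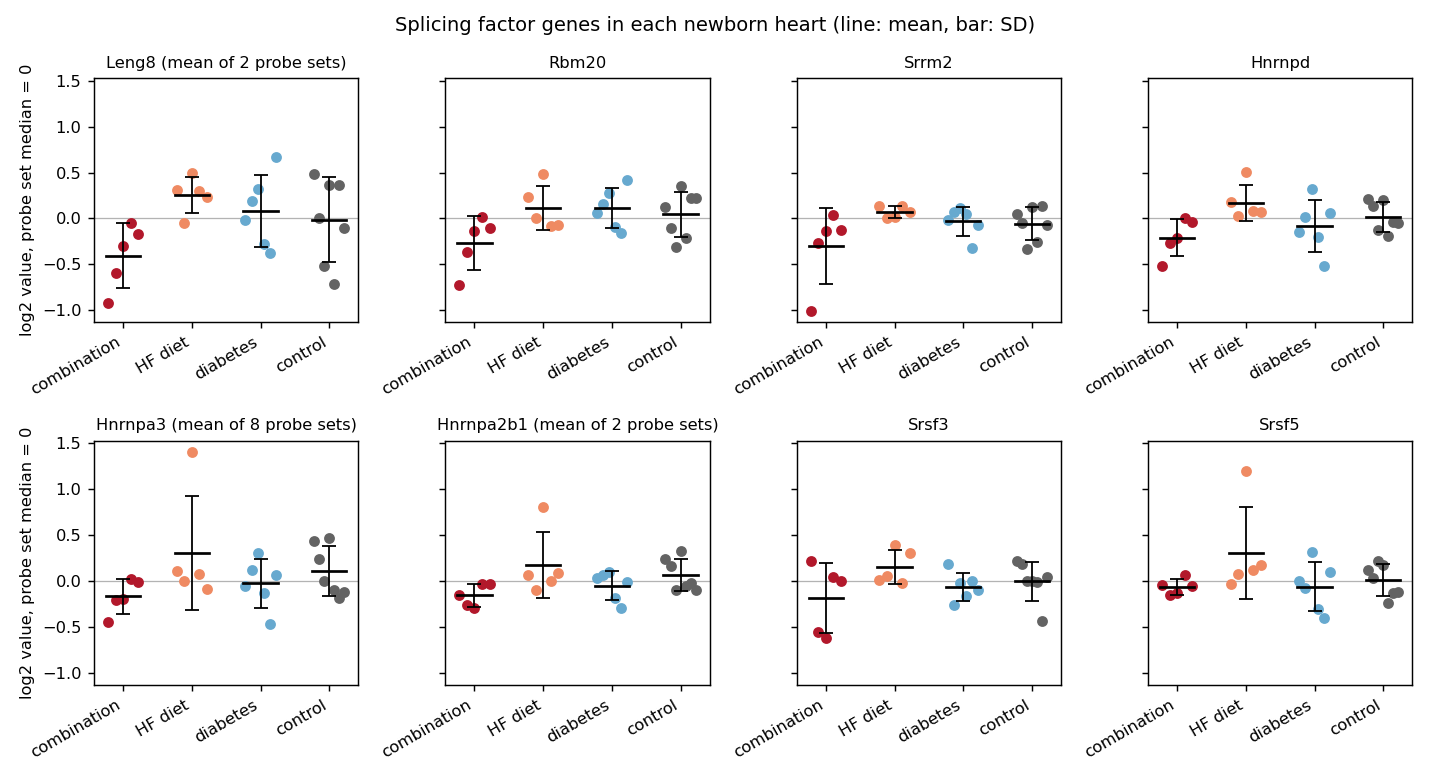
Log2 values of 8 splicing factor genes in every heart, with 0 at the probe set's median, 1 point per heart in its deposited number order, a line at the group mean and a bar for the SD (n = 5 combination, 5 HF diet, 6 diabetes and 7 control hearts). HF diet heart 3 stands alone at 1.41 for Hnrnpa3 and 1.20 for Srsf5, while all 5 combination hearts of Leng8 lie below 0.

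The count moved with single hearts. It was 3, both Leng8 probe sets and Srrm2, without HF diet heart 3, where 1.93% of all probe sets were lower. It was 6, 5 and 6 without combination heart 1, 2 or 3, where 1.16%, 2.07% and 3.02% of all probe sets were lower, and it was 24 without combination heart 4, where 5.01% were. Leng8 stayed past the threshold in both probe sets without any 1 of the 23 hearts, but neither probe set was past it when hearts of 1 code stem were averaged (-0.61 and -0.57). Without HF diet heart 3 and combination heart 1 together, 1 member, Srsf3, was past the threshold, where 0.833% of all probe sets were lower, and without combination hearts 1 to 3 none was, where 0.593% were. The spread of whole arrays moved with these hearts. The SD over all probe sets was 0.393, 0.309 and 0.26 in combination hearts 1 to 3 and 0.3 in HF diet heart 3, against 0.161 to 0.21 in the other hearts of the 2 groups. When arrays were rescaled to equal spread, 2 of 83 members (2.41%), both of Leng8, were past the threshold, where 1.45% of all probe sets were lower.

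Markers of red blood cells moved with the comparison as well. The mean of 11 erythroid probe sets ran between -0.37 and 1.10 (median 0.07) in combination hearts, against -0.28 to 0.02 (median -0.13) in HF diet hearts, and Ahsp and Rhag were higher past the threshold. With this mean as a covariate, 3 members were past the threshold, both Leng8 probe sets and Srrm2, where 1.42% of all probe sets were lower. Cardiomyocyte markers, 10 of 10 measured, had a median difference of -0.04 with 0 past the threshold, fibroblast markers -0.22 with 0 of 8, endothelial markers -0.11 with 1 of 8 lower (Tie1, and 0 without either of these 2 hearts), and smooth muscle and pericyte markers -0.12 with 0 of 7. Leukocyte markers had a median of 0.04 with 1 of 9 higher (Lyz2). The part of these other markers in the result was not tested.

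**Figure D4:**
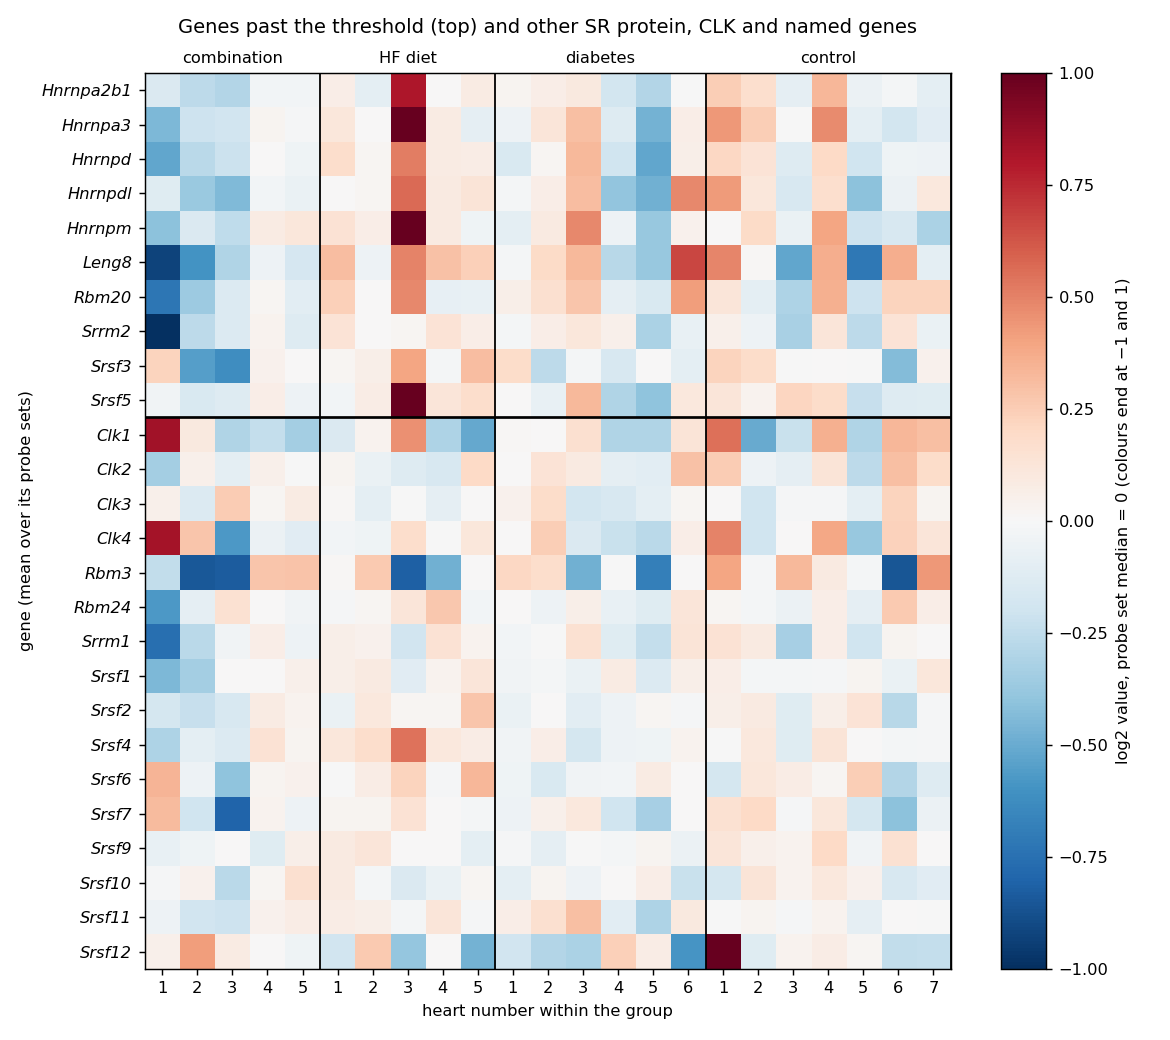
Log2 values, as colours from blue (lower) to red (higher) that end at -1 and 1, of the 10 genes past the threshold between combination and HF diet hearts (above the line) and of other SR protein, CLK and named genes (below it), by heart and group. HF diet heart 3 is the single dark red column for Hnrnpa3, Hnrnpm and Srsf5, and combination hearts 4 and 5 are pale for most genes.

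Of the 20 members above 0 in this comparison, 13 were Rbm proteins. The 3 members with the largest positive difference were Srsf12 with 0.26 ± 0.20 (SE), Rbm42 with 0.23 ± 0.16 (SE) and Rbmx2 with 0.22 ± 0.16 (SE), none past the threshold. Hnrnpf, a G-tract binding protein, differed by 0.00 in both its probe sets. Hnrnph3 differed by -0.46 ± 0.24 (SE), as much as Hnrnpa3, but with an exact permutation p = 0.0952, and its value in HF diet heart 3 was 1.75.

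HF diet added to diabetes was also set against diabetes alone. Here 3 of 83 members (3.61%) were lower, both Leng8 probe sets and Rbm20, where 1.37% of all probe sets were lower, and none was higher, where 1.67% of all probe sets were. The median over the members was -0.07, against 0.00 over all probe sets, and 58 of 83 members lay below 0. The combination hearts of this comparison are those described above, so the 2 results share them.

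For Leng8 probe set 10719006 the diabetes hearts ran from -0.42 to 0.76 with a median of 0.07, and the combination hearts given above lay within the lower part of that range or below it. The difference was -0.50 ± 0.22 (SE), with p = 0.0345 (adjusted p = 0.528) and an exact permutation p of 0.0563, and that of probe set 10719002 was -0.49 ± 0.21 (SE). Rbm20 ran from -0.16 to 0.42 in diabetes hearts, with a median of 0.11. Its difference was -0.37 ± 0.14 (SE), with p = 0.0168 (adjusted p = 0.528) and an exact permutation p of 0.0368. The groups overlapped for both genes, and 0.12% of all probe sets had every combination heart below every diabetes heart, which held for 0 members. Without combination heart 1, or without diabetes heart 6, none of the 3 was past the threshold, where 0.525% and 0.696% of all probe sets were lower. Only Rbm20 was without combination heart 2 or diabetes heart 2 or 3, where 0.891% to 1.19% were lower. Without combination heart 4, and likewise without diabetes heart 5, 4 members (4.82%) were lower and 1, Rbmx2, was higher. Of all probe sets, 3.18% and 3.61% were lower under these settings in turn, and the share that were higher was not counted.

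The largest differences besides these were -0.27 in Srrm2, with an exact permutation p = 0.126, and, in the other direction, 0.32 in Rbmx2, 0.28 in Srsf12 and 0.20 in Hnrnpc, none past the threshold. Hnrnpc binds uridine tracts and packages nascent transcripts.

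The interaction asked whether the 2 exposures together differed from the sum of each alone. It was lower than 0 past the threshold in 4 of 83 members (4.82%), where 2.56% of all probe sets were lower, and higher in none, where 1.78% of all probe sets were. The 4 were Leng8 in both probe sets (-0.77 ± 0.29 and -0.76 ± 0.31, SE), Rbm20 (-0.44 ± 0.20) and Srrm2 (-0.40 ± 0.19), with p between 0.0155 and 0.0438 and an adjusted p of 0.672 at the lowest. Hnrnph3 (-0.46) was among the 3 lowest and not past the threshold, and Srsf12 (0.51), Rbmx2 (0.31) and Rbm7 (0.24) were the 3 highest. The median was -0.13 over the members and -0.01 over all probe sets. Leng8 stayed past the threshold without any 1 heart. Only Leng8 did without combination heart 1 or 2, HF diet heart 1, diabetes heart 2 or 3, or control heart 2, 3 or 5. Under these settings 1.39% to 2.52% of all probe sets were lower. Without diabetes heart 5, 7 members (8.43%) were lower, where 5.16% of all probe sets were, and 1, Srsf12, was higher. The share of all probe sets that were higher was not counted there.

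Against control hearts, none of the exposures moved a member past the threshold. In combination hearts 0 members were lower or higher, where 1.2% of all probe sets were lower and 2.1% higher, and 0 were by the methods' t-test. At an unadjusted p under 0.05, 5 members were lower: Hnrnpul1 (-0.21), Rbm12 (-0.19), Rbm20 (-0.31), Rbm34 (-0.18) and Srsf1 (-0.16), all short of the fold. The median over the members was -0.09, against 0.00 over all probe sets, with 55 of 83 below 0. The lowest were Leng8, at -0.42 ± 0.21 (SE) and -0.37 ± 0.20 (SE), and Rbm3, a cold-inducible protein, at -0.32 ± 0.25 (SE). The highest were Hnrnpc (0.25), Rbmx2 (0.23) and Rbm46 (0.18).

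Leng8 probe set 10719006 ran from -0.73 to 0.61 in control hearts, with a median of 0.02, which is wider than in HF diet hearts. Rbm20 ran from -0.31 to 0.35 in control hearts, with a median of 0.12, and its difference to combination hearts was -0.31 ± 0.14 (SE), with p = 0.0397 (adjusted p = 0.498) and an exact permutation p of 0.077. Of all probe sets 0.0857% had every combination heart below every control heart, and of the members 0 did. Without combination heart 4, 4 members (4.82%) were lower past the threshold, both Leng8 probe sets, Rbm20 and Srrm2, where 2.84% of all probe sets were. Without control heart 3 or 5, 3 (3.61%) were, both Leng8 probe sets and Rbm20, where 1.84% and 2.34% of all probe sets were. Without combination heart 5, 1 member (1.2%) was lower (Rbm20), where 2.32% of all probe sets were, and 1 was higher (Hnrnpc). The share of all probe sets that were higher was not counted there. Without combination heart 3, diabetes heart 6 or control heart 2 or 6, 1 was lower, where 1.06% to 1.33% of all probe sets were.

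HF diet alone was set against control next. No member was lower or higher past the threshold, where 0.257% of all probe sets were lower and 0.686% higher, and 0 were by the methods' t-test. The median was 0.06 against 0.01 over all probe sets, and 61 of 83 members lay above 0, among them all 29 hnRNP probe sets. The median was 0.0144 without HF diet heart 3, whose own median over the members was 0.162, against 0.012 to 0.052 in the other HF diet hearts. Srsf4 (0.19), Rbms1 (0.21) and Rbm11 (0.18) had an unadjusted p under 0.05. The highest were Hnrnph3 (0.40), Srsf5 (0.30) and Hnrnpm (0.29), genes in which HF diet heart 3 stood above the rest, and the lowest were Rbm3 (-0.25), Srsf12 (-0.23) and Clk1 (-0.17). Without HF diet heart 2 or control heart 4, 2 members were higher past the threshold, and without HF diet heart 1 or 5, 1 was. The share of all probe sets that were higher was not counted under these settings.

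Diabetes alone gave the smallest differences of the 3 exposures. No member was past the threshold, where 0.0823% of all probe sets were lower and 0.223% higher, and 0 had an unadjusted p under 0.05 or passed by the methods' t-test. The median was -0.03, with 60 of 83 members below 0. The lowest were Srsf12 (-0.26), Rbm3 (-0.18) and Rbm12 (-0.17), and the highest were Leng8 (0.12), Rbms1 (0.11) and Rbm14 (0.10).

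Over the 4 groups, the combination mean was the lowest for 53 of 83 members, against 35.4% of all probe sets, and the HF diet mean was the highest for 55, against 31.9% of all probe sets. The median over the members was 0.162 in HF diet heart 3, against 0.012 to 0.052 in the other HF diet hearts, and 8 members are probe sets of Hnrnpa3. This order was not counted without that heart. Among the SR proteins, Srsf1 averaged -0.15 ± 0.23 in combination, 0.04 ± 0.09 in HF diet, -0.02 ± 0.08 in diabetes and 0.01 ± 0.06 in control hearts (SD). Srsf7 averaged -0.14 ± 0.41, 0.04 ± 0.06, -0.07 ± 0.16 and -0.03 ± 0.21 in the same order, and Srsf2 -0.09 ± 0.14, 0.07 ± 0.13, -0.04 ± 0.05 and -0.01 ± 0.14. Srsf6, Srsf9, Srsf10 and Srsf11 had group means between -0.07 and 0.12. Srsf12 had another order, with 0.10 ± 0.18 in combination, -0.16 ± 0.30 in HF diet, -0.18 ± 0.30 in diabetes and 0.08 ± 0.44 in control hearts. Its control mean held control heart 1 at 1.018, with the other control hearts between -0.25 and 0.075. None of these genes was past the threshold in the 5 comparisons between 2 groups that were run, which leave out diabetes against HF diet.

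The CDC-like kinases, whose transcripts are themselves controlled by splicing, had group means that lay close together beside the spread of single hearts. Clk1 averaged 0.01 ± 0.49 in combination, -0.09 ± 0.37 in HF diet, -0.05 ± 0.20 in diabetes and 0.07 ± 0.41 in control hearts (SD). Clk4 averaged 0.07 ± 0.52, 0.04 ± 0.10, -0.05 ± 0.19 and 0.09 ± 0.31 in the same order. Clk2 and Clk3 had group means between -0.07 and 0.07. Srrm1, the partner of Srrm2 in splicing coactivation, averaged -0.21 ± 0.33 in combination, 0.02 ± 0.13 in HF diet, -0.02 ± 0.15 in diabetes and -0.03 ± 0.17 in control hearts. Rbm24 averaged -0.11 ± 0.28, 0.07 ± 0.12, -0.01 ± 0.09 and 0.04 ± 0.12, and Rbm3 -0.27 ± 0.56, -0.20 ± 0.43, -0.13 ± 0.37 and 0.05 ± 0.44.

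Other genes of RNA processing were counted in combination against HF diet hearts from lists that the rule did not use. These lists were chosen with earlier results of these data known, so their counts are a description. Of 31 probe sets of SR-related proteins and SR kinases, 7 were lower and 0 higher, with a median of -0.20, where 2.92% of all probe sets were lower and 2.84% higher, as for the lists that follow. The 4 with the smallest p were Scaf8 (-0.42), which binds the tail of RNA polymerase II, Bclaf1 (-0.34), Sfswap (-0.44), named for a Drosophila gene that regulates its own splicing, and Thrap3 (-0.34). Of 40 probe sets of other alternative splicing regulators 2 were lower, Sfpq (-0.35) and Taf15 (-0.38), both DNA- and RNA-binding proteins of nuclear bodies, with a median of -0.14. Without HF diet heart 3 these counts were 3 and 0, and they were the same without combination heart 1. Of all probe sets 1.93% and 1.16% were lower under these settings in turn.

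The core spliceosome, the small nuclear ribonucleoproteins and their partners, had a median of 0.04, with 4 of 62 probe sets higher and 1 lower. The 4 higher were Snrpd2 (0.45), Lsm7 (0.45), Sf3b5 (0.47) and Lsm3 (0.37), small subunits of the splicing machinery, and the lower one was Snrnp70 (-0.40), the U1 subunit that SR proteins contact. Without HF diet heart 3, 2 were higher and none lower, and without combination heart 1 none of the 62 was past the threshold. The share of all probe sets that were higher was not counted under these settings. Genes of nonsense-mediated decay and the exon junction complex had 0 of 9 past it, with a median of -0.08.

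The list of transcripts whose exons Rbm20 controls held 16 genes, of which 13 were measured. Of the 13, 3 were lower in combination hearts, Cacna1c (-0.48), Ryr2 (-0.45) and Ttn (-0.40), and all 13 differences were below 0, with a median of -0.19. These are the L-type calcium channel, the calcium release channel and titin. The count was 1 without HF diet heart 3, where 1.93% of all probe sets were lower, and 0 without combination heart 1, where 1.16% were. Of 34 listed chromatin regulators with long transcripts 19 were measured. Of the 19, 11 were lower, led by Chd3 (-0.50), Chd6 (-0.45), Ep400 (-0.37) and Ash1l (-0.37), with a median of -0.37. The count was 6 without HF diet heart 3 and 1 without combination heart 1, with the same shares of all probe sets.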

How the data were processed

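RNA (100 ng) of 23 hearts was hybridized to Affymetrix arrays, 1 per heart. The authors normalized the intensities in GeneSpring GX and deposited a table of log2 values of 29170 probe sets, in which every probe set has a median of 0 across arrays. Which algorithm they used was not stated, and raw files were not used here. Precision is limited by how many arrays there were. The p-values cover only the spread among these hearts, some of which may share a dam.

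Gene symbols came from the platform's annotation, and all 67 gene identifiers matched RefSeq. A model with 1 mean per group was fitted over the 23 hearts (limma, lmFit then eBayes), which gave the 6 comparisons. The threshold, a log2 difference beyond 0.32 and an unadjusted p under 0.05, is that of the methods. Benjamini-Hochberg adjustment ran over all probe sets. Single members also got a two-sided exact permutation p over every split of the hearts. The members and the gene lists were chosen with earlier results of these data known.

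The genes named are the members past the threshold, the 3 largest differences in each direction, the Srsf, Clk, Srrm and Leng8 genes, Rbm20, Rbm24 and Rbm3, and of each list at most 4 by p. Rbm11, Rbm34, Rbms1, Hnrnpul1, Hnrnpf and Hnrnph2 were added after their values were seen. Alternatives were the methods' t-test (unequal variances), the hearts of 2 groups only, rescaled or quantile-normalized arrays, code stems averaged or as a random block, array weights, the replicate number as a block, an erythroid covariate, other feature sets and leaving out each heart. Promoter sequence is from RefSeq, build GRCr8. The fit was also run on simulated data with independent noise of equal spread in all hearts. Unequal array spread and shared code stems were left out, so that run cannot show their effect on the counts. R 4.3.3 with limma 3.58.1 and Python 3.11.15 were used.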

Additional observations from a re-analysis of the deposited data

Results flagged for a closer look

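Among the 10 genes past the threshold in any comparison, each group's highest and lowest heart was set against the others by Dixon's ratio over 40 combinations of gene and group. In unselected groups chance passes this ratio about 1 time in 20, a rate that does not hold here, since the genes were chosen by differences that these same hearts entered. There were 7 hearts apart from their group, 5 of them HF diet heart 3. That heart read 1.41 for Hnrnpa3, with the other HF diet hearts between -0.09 and 0.12, and 0.806 for Hnrnpa2b1 (others -0.10 to 0.09), each as the mean of the gene's probe sets. It read 1.10 for Hnrnpm (others -0.05 to 0.14), 1.20 for Srsf5 (others -0.03 to 0.18) and 0.567 for Hnrnpdl (others 0.00 to 0.13). Combination heart 1 read -1.01 for Srrm2, with the other combination hearts between -0.26 and 0.04. Control heart 6 read -0.43 for Srsf3, with the other control hearts between -0.01 and 0.22. The cause was not tested.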

How the results depend on the processing

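The count of members past the threshold between combination and HF diet hearts (18) moved most. With the share of all probe sets that were lower under the same setting after each, it was 4 with the methods' t-test (1.59%), 6 with the hearts of the 2 groups only (3.16%), 2 with rescaled arrays (1.45%), 3 with quantile normalization (1.5%), 3 with code stems averaged (1.92%), 7 with the stem as a random block (2.46%), 2 with array weights (1.15%), 3 with the erythroid covariate (1.42%) and 10 of 67 genes with probe sets averaged per gene (2.08%), which counts Hnrnpa3 once. Both Leng8 probe sets lost the call with code stems averaged. With a replicate block it was 17 (2.94%), and it was 3 to 24 when 1 heart was left out (1.16% to 5.01%). Against diabetes (3), with the same share after each, it was 1 with the methods' t-test (0.463%) and 1 with code stems averaged (1.1%). It was 0 with array weights (0.764%) and 1 with the replicate block (0.888%). With 1 heart left out (0.525% to 3.61%) it was 0 to 5, of which at most 1 was higher. The interaction count (4) was 2 with rescaled arrays (1.9%), 0 with code stems averaged (1.68%) and 2 with array weights (1.9%). With 1 heart left out (1.39% to 5.16%) it was 2 to 8, of which at most 1 was higher. With the replicate block (2.56%) it was 4, of which 3 were lower (Leng8 in both probe sets and Rbm20) and 1, Srsf12, was higher. Srrm2 was then no longer past the threshold. Against control, the counts of 0, both directions together, became 0 to 4 for combination (0.473% to 2.84%) with 1 heart left out. For HF diet they became 0 to 2, all higher. Shares of all probe sets that were higher were not counted under any changed setting. The median for HF diet against control was 0.0144 to 0.0797 over the planned settings. Other settings were chosen after seeing the data. Without HF diet heart 3 and combination heart 1 together, the counts were 1 against HF diet (0.833%), 0 against diabetes (0.507%) and 0 for the interaction (1.09%). Without combination hearts 1 to 3 all were 0 (0.593%, 0.394% and 0.963% in the same order), and the median against diabetes turned to 0.0387. The difference of Hnrnpc then turned to -0.0784 against control and -0.13 against diabetes, and that of Rbm3 to 0.23 against control. Rbm3 also turned, to 0.0009, between diabetes and control hearts with the erythroid covariate. The medians over the members kept their sign in all planned settings, at -0.18 to -0.10 for combination against HF diet. Across groups, 31 same-numbered pairs of hearts correlated between -0.422 and 0.559 (median -0.0828), against a median of -0.00994 in the other pairs. Of 22 hearts 7 correlated best with a heart of their own number. Whether the numbers mark a pairing or a batch was not tested. No depth or signal over background can be read from centred values. The cause of these shifts was not tested.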
